A study of Arabidopsis thaliana with 4 samples.

Results

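Metallothioneins are small proteins rich in cysteine, whose thiol groups bind metals such as copper and zinc. In *A. thaliana* the types 1, 2 and 3 are made in vegetative organs, where they are known mainly for copper handling and are linked with the phloem, the leaf mesophyll and ageing leaves, whereas type 4 belongs to the maturing seed and stores zinc. The family was taken by locus as *MT1A* (AT1G07600), *MT1C* (AT1G07610), *MT2A* (AT3G09390), *MT2B* (AT5G02380), *MT3* (AT3G15353), *MT4A* (AT2G42000) and *MT4B* (AT2G23240). All 7 loci were on the array, among 29030 loci, and they were read by 16 probes. They were proposed as a family with results of these arrays known, so the effect of exposure on them is described and not tested.

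The data came from whole *A. thaliana* Col0 seedlings, 7 days old, with roots and shoots together. On each of 4 two-colour Agilent arrays, 1 biological replicate of unexposed control seedlings (Cy3) was set against 1 of seedlings exposed for 16 h to the volatiles (mVOCs) of the bacterium *Erwinia amylovora* (Cy5), grown on the same plate without contact. Because the dyes were never exchanged, a dye effect and the effect of exposure cannot be told apart, and in whole seedlings fewer cells of a type and less RNA per cell cannot be told apart either. Replicates 1 and 2 lay on slide 1 and replicates 3 and 4 on slide 2. The free-text description attached to all 4 samples speaks of untreated embryonic stem cells. It goes against their organism, organ and agent labels and the study's methods, and it was not used. The probes of 6 of 6 shoot marker genes and of 7 of 7 root marker genes, all plant genes such as the Rubisco small subunit *RBCS1A* and the root hair expansin *EXPA7*, were well above background in both channels on every array.

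Between 74.2% and 78.8% of the 43803 non-control spots of a channel were well above background. Values are log2 ratios of exposed over control after normexp background correction with an offset of 50 and loess, averaged over the probes of a locus, with their SD over the 4 arrays. Over all 29030 loci the median log2 ratio was 0.0029, and at an adjusted p below 0.05 (limma) 17.3% of the loci were called, 9.33% as higher and 7.96% as lower. Replicate 4 had the narrowest spread of log2 ratios, with an SD of 0.112 over probes against 0.155 to 0.187 on the other arrays.

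The 5 vegetative genes had positive mean log2 ratios, from 0.15 for *MT2A* to 0.84 for *MT1A*, although the ratio of the scanner software turned *MT2A* to -0.018. For each of the 5, the normalized levels of the exposed seedlings lay above those of all controls, as they did for 8.1% of all loci, where the reverse held for 7.47%. Of the 16 member probes, 11 had an adjusted p below 0.05, 10 higher and 1 lower (the below-background probe of *MT4A*), where 18.2% of all probes did, 9.62% higher and 8.58% lower. The members were chosen with this contrast known, so nothing is read from either count. The probes of *MT4A* and *MT4B* were at or close to background.

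*MT1A*, a type 1 metallothionein known for copper binding in roots and vascular tissue, had the highest mean of the family. Its single probe read 118016, 109187, 92040 and 96868 intensity units in the controls of replicates 1 to 4, and 326309, 297688, 320042 and 304132 in the exposed seedlings. After normalization the log2 ratios were 0.83, 0.72, 1.02 and 0.79, with a mean of 0.84 ± 0.13 (SD, n = 4), or 1.79-fold. All 4 arrays lay on the same side, and the means within the slides were 0.77 and 0.91. Replicate 3 combined the highest ratio with the lowest control level, 16.78 on the log2 scale against 17.01 to 17.18 in the other controls. The scanner software marked the background of this spot as non-uniform on all 4 arrays.

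*MT1C*, the close paralog of *MT1A*, had log2 ratios of 0.21, 0.45, 0.32 and 0.33, with a mean of 0.33 ± 0.099 (SD, n = 4). The 4 values were positive and below the lowest value of *MT1A*, and its slide means were 0.33 and 0.32. Each of both genes has 1 probe. Whether these probes tell the paralogs apart was not tested, because their sequences were not used here, so the split of signal between *MT1A* and *MT1C* is uncertain.

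*MT3*, a type 3 metallothionein known from leaf mesophyll, had log2 ratios of 0.37, 0.27, 0.41 and 0.31 (mean 0.34 ± 0.061, SD, n = 4). Its 4 probes had means of 0.59, 0.33, 0.23 and 0.21, each positive on all 4 arrays. The probe at 0.23 was the least even, with values between 0.046 and 0.45. The direction thus held for every probe of the locus, while its size differed between them.

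*MT2A*, a type 2 metallothionein expressed in most organs, had the smallest and most even values, 0.16, 0.18, 0.15 and 0.13 (mean 0.15 ± 0.020, SD, n = 4). Its probes had means of 0.12 and 0.19. The evenness between arrays does not cover the choice of normalization, under which *MT2A* was the only vegetative member to change sign.

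*MT2B*, the other type 2 gene, is linked with the phloem. Its locus values were 0.16, 0.20, 0.19 and 0.21 (mean 0.19 ± 0.023, SD, n = 4), yet the 5 probes behind them did not share 1 direction. The probes A_84_P849022, A_84_P23384 and A_84_P804695 had means of 0.44, 0.29 and 0.24 and were positive on all 4 arrays. The probe A_84_P804690 had a mean of 0.036 ± 0.070 (SD, n = 4), with replicate 2 at -0.066. The probe A_84_P804775 had a mean of -0.064 ± 0.10 (SD, n = 4) and was negative on 3 of 4 arrays. The means of the 5 probes thus lay farther apart than the 4 values of the locus.

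**Figure D1:**
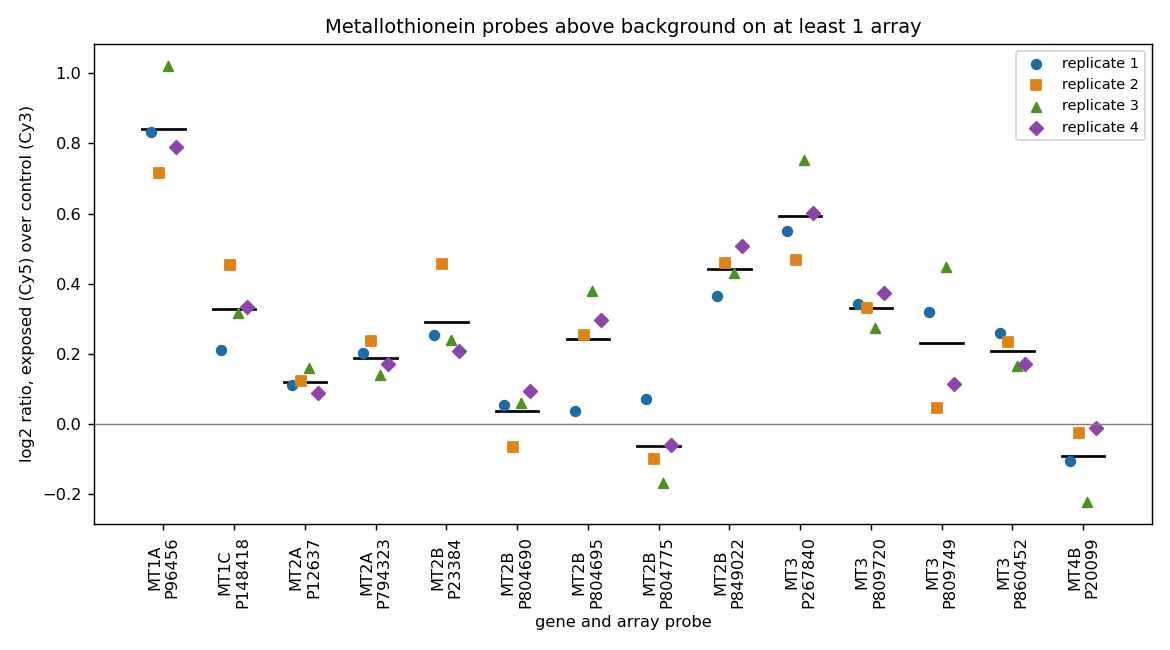
Log2 ratio of exposed (Cy5) over control (Cy3) seedlings for each metallothionein probe that was well above background on at least 1 array, with 1 point per array and a bar at the mean of the 4 arrays. *MT1A* lies between 0.72 and 1.02, *MT3* is positive for all 4 probes, and of the 5 *MT2B* probes P804690 and P804775 lie around 0. Under the scanner software's ratio the mean of *MT2A* turned to -0.018.

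**Figure D2:**
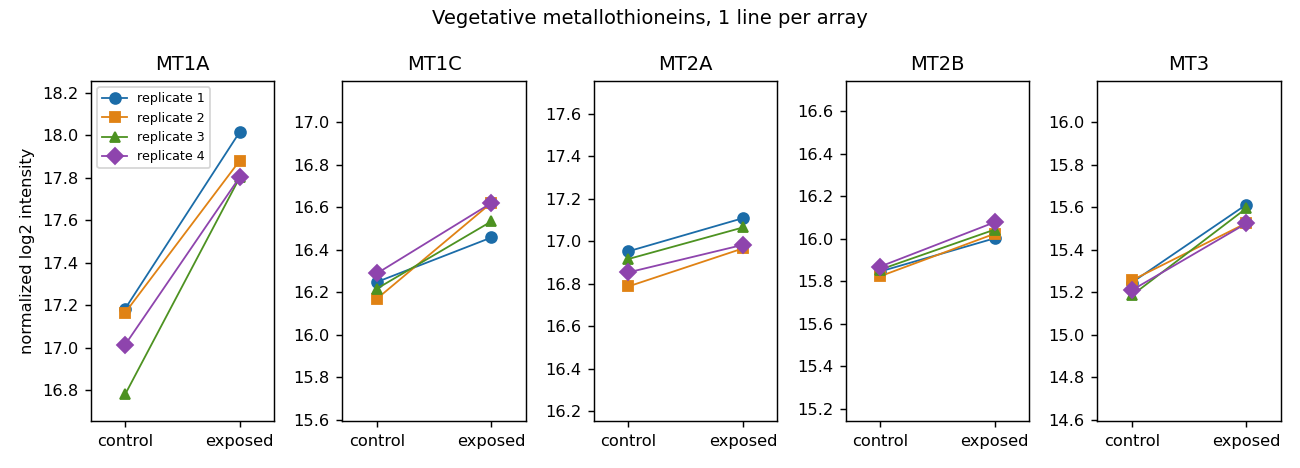
Normalized log2 intensity of the 5 vegetative genes in control and exposed seedlings, with 1 line per array and axes of equal height. In the normalization of the text all lines go up, by 0.72 to 1.02 for *MT1A* and by 0.13 to 0.18 for *MT2A*, whose mean turned to -0.018 under the scanner software's ratio.

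The vegetative probes shared a place at the bright end of the arrays. All 13 were well above background in the 8 readings of each, and their mean intensity lay between the percentiles 95.6 and 99.9 of all probes. No reading of a member was saturated. For 10 of the 13 probes every reading had been scaled up by the scanner software from a second measurement at low gain, as were between 2.17% and 3.67% of the non-control spots of a channel. Those 10 probes had log2 ratios from 0.12 to 0.84. The 2 vegetative probes that were never scaled up were A_84_P804690 of *MT2B*, at 0.036, and A_84_P860452 of *MT3*, at 0.21, and A_84_P804775 of *MT2B*, at -0.064, was scaled up in its Cy5 readings only. Over all 932 probes scaled up in every reading the median log2 ratio was 0.032, with an SD of 0.23 over probes. Loess centres the ratios along intensity, so a median near 0 follows largely from the normalization. The part of the low-gain readings in the ratios was not tested.

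The seed type was examined on the raw readings. *MT4A*, named with *MT4B* as an EC metallothionein that holds zinc in seeds, has 1 probe, and its sequence is shown because the study selected the gene from these arrays through this probe. The capitals mark the first ATG and the only cysteine codon (TGC) in frame with it. The oligonucleotide is 60 bases long, its ATG starts at base 19, and the locus is on chromosome 2.
A_84_P12492: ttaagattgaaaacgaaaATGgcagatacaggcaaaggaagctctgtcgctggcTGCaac

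In the controls this probe read 88, 84, 84.5 and 76.5 intensity units, over a local background of 53, 53, 51 and 51. In the exposed seedlings it read 63, 64, 64.5 and 62 units, over a local background of 54, 53, 54 and 54. The software classed it as well above background in 0 of 8 readings, so that no fold change is given for *MT4A*. The Cy3 readings were the higher ones on every array, but these raw readings are not normalized between the dyes, and neither group gave a measured level.

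*MT4B* has 2 probes. A_84_P552606 was well above background in 0 of 8 readings and gives no fold change. A_84_P20099 read 101.5, 90.5, 97.5 and 86.5 units in the controls and 80, 81.5, 78 and 70 in the exposed seedlings, and was well above background on 3 of 4 arrays in the controls and on 4 of 4 in the exposed seedlings. Its log2 ratios were -0.11, -0.026, -0.22 and -0.012, with a mean of -0.092 ± 0.097 (SD, n = 4). The 4 values were negative, and the SD was as large as the mean.

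**Figure D3:**
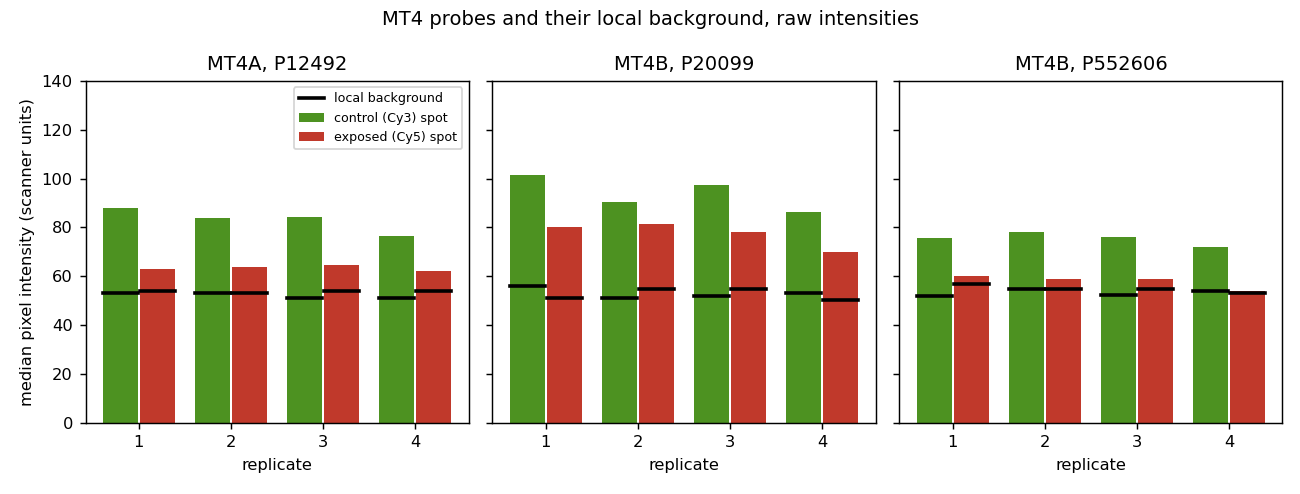
Raw median pixel intensity, not normalized between dyes, of the 3 *MT4* probes in control (Cy3) and exposed (Cy5) seedlings on each array, with the local background of each spot as a black line. *MT4A* reads 76.5 to 88 units in the controls and 62 to 64.5 in the exposed seedlings, and is not well above background in any reading.

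Seed maturation genes were examined beside *MT4*, in a list of 16, of which 7 had been selected by the study from these same arrays and are no independent evidence of direction. In the fit over all loci 6 were lower and 2 higher (limma, adjusted p below 0.05), and the median log2 ratio was -0.11. Of the 7 selected genes 5 were lower and 2 not called. Of the other 9, 1 was lower (*CRA1*), 2 were higher and 6 were not called, with a median of -0.074. Over all loci 7.96% were lower and 9.33% higher. The cruciferins *CRU3* and *CRA1*, storage globulins, fell, with log2 ratios of -0.95 (adjusted p = 0.00136) and -0.27 (adjusted p = 0.00552), as did the storage albumin *SESA2*, at -0.69 (adjusted p = 0.00314), although it was well above background on only 1 of 4 arrays in the exposed seedlings. The values of *CRU3* were -1.19, -1.16, -1.16 and -0.27. *SESA5*, *SESA1* and the vicilin-like *PAP85* were not well above background in exposed seedlings on any array, and *PAP85* was so in the controls on 3 of 4 arrays. By the rule given next, *SESA5* and *SESA1* were at least 3.10-fold (adjusted p = 0.00179) and 1.38-fold lower (adjusted p = 0.00398). *PAP85* passed the test as lower (adjusted p = 0.0363), but no fold is given for it. These bounds set the mean normalized level of the controls against, on each array, the lowest exposed level counted as above background or the locus's own level, whichever was higher. For *PAP85* it was its own level on all 4 arrays, so that the rule gave no bound. For *SESA1* it was its own level on replicates 3 and 4, and for *SESA5* on replicate 4. The rule sets no strict limit of detection. On replicate 4 the exposed log2 level of *SESA5* was 7.38 and not counted as above background, while the lowest level so counted was 5.73. The bounds are open to dye bias. The antioxidant *PER1* and the oleosin *OLEO2*, a coat protein of oil bodies, rose, at 0.34 (adjusted p = 0.00841) and 0.26 (adjusted p = 0.0115). Replicate 4 stood nearer 0 than the other arrays for each of these genes. Its computed log2 ratio was -0.40 for *SESA5* against -2.45 to -2.14 on the others, -0.077 for *SESA1* against -0.82 to -0.66, -0.10 for *SESA2* against -0.92 to -0.84, and 0.022 for *OLEO2* against 0.32 to 0.35.

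The other 8 did not pass the test. *OLEO1*, *OLEO3*, *OLEO4*, *EM1* and *EM6* had values of -0.074, 0.059, -0.10, -0.098 and -0.15. *SESA3* and *CRU2* were above background on 3 and 1 of 4 arrays in the controls and on none in the exposed seedlings (adjusted p = 0.0626 and 0.143), and *SESA4* was so in 1 of 8 readings. No fold is given for these genes. The summed normalized intensity of the list was 3185 to 3659 in the controls and 2887 to 3029 in the exposed seedlings. Its median by array was -0.16, -0.14, -0.14 and -0.021, lowest in size in replicate 4, where the *MT4B* probe also lay nearest 0. The part of seed RNA in the *MT4* readings was not tested.

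Some organ markers were called as well. The summed normalized intensity of the 6 shoot markers was 388563 to 424776 in controls and 491606 to 558392 in exposed seedlings, and of these genes 3 were higher, 1 was lower and 2 were not called, with a median log2 ratio of 0.053. *RBCS1A*, the highest, was at 0.48 (adjusted p = 0.000215) and the antenna protein gene *LHCB2.1*, the lowest, at -0.28 (adjusted p = 0.00461). The summed intensity of the 7 root markers was 17688 to 18566 and 17001 to 17181, and 2 of these genes were lower and 5 not called, with a median of -0.11. *EXPA7*, the lowest, was at -0.57 (adjusted p = 0.00018), and *PIP2;4* at -0.26 (adjusted p = 0.00461). *PRP3*, *COBL9* and *RCI3* had values of -0.12, -0.11 and -0.052, *CASP1* and *SCR* of 0.061 and 0.025, and none of these passed the test. Over all loci 9.33% were called higher and 7.96% lower. The summed intensities of the groups did not overlap in either list, but a sum can follow its brightest genes. Of single loci, 8.1% had levels that did not overlap and were higher, and 7.47% lower. The part of the organ markers in the metallothionein values was not tested.

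Among the genes that move, chelate or use the same metals, the zinc and copper lists held calls in both directions. Of 22 zinc genes 4 were higher and 2 lower, beside 9.33% and 7.96% of all loci, with a median log2 ratio of 0.050. The nicotianamine synthase *NAS2* and the zinc transporter *ZIP4* rose, with log2 ratios of 0.30 (adjusted p = 0.00398) and 0.25 (adjusted p = 0.00514). The transporters *ZIP5* and *ZIP3* fell, at -0.26 (adjusted p = 0.00239) and -0.23 (adjusted p = 0.00857).

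Of 17 copper genes 1 was higher and 3 lower, beside 9.33% and 7.96% of all loci, with a median of -0.031. The copper/zinc superoxide dismutase *CSD3* rose by 0.14 on the log2 scale (adjusted p = 0.0309), whereas the copper chaperone *ATX1* (-0.20, adjusted p = 0.0114) and the reductase *FRO5* (-0.18, adjusted p = 0.0452) fell. The copper/zinc superoxide dismutases did not share a direction. *CSD1* fell (-0.15, adjusted p = 0.0161), and *CSD2* was at -0.0020 and did not pass the test. Of 7 genes of glutathione and phytochelatin synthesis and transport 2 were called, beside 17.3% of all loci. The transporter *ABCC3* (-0.22, adjusted p = 0.00784) and the glutathione synthesis enzyme *GSH1* (-0.17, adjusted p = 0.0101) both fell. The phytochelatin synthase genes *PCS1* and *PCS2* had values of -0.021 and -0.072 and did not pass the test.

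Type 1 to 3 metallothioneins are often named with leaf senescence, so 10 senescence genes were listed. Of these, 1 was higher and 4 were lower, beside 9.33% and 7.96% of all loci, with a median of -0.13. *SAG13*, a short-chain dehydrogenase, rose by 0.44 (adjusted p = 0.000553), while *SAG14*, a blue copper-binding protein, fell with -0.73 (adjusted p = 4.5e-05) and *SEN4*, a xyloglucan endotransglucosylase, with -0.31 (adjusted p = 0.00072). *SAG12*, the protease of late senescence, was well above background in 0 of 8 readings and gives no fold.

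Together the 5 lists held 25 called loci. Without replicate 1 there were 16, all of them among the 25, and *CSD1*, *CSD3*, *FRO5*, *GSH1*, *OLEO2* and *PAP85* were among those lost. The copper list held 0 calls without replicate 4, with 5 loci at an unadjusted p below 0.05 in limma. With no offset in the background model limma made 0 calls in the 5 lists, with 27 loci at an unadjusted p below 0.05, and with an ordinary test 1 call, *SEN4*, was made.

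As a description over the 4 arrays, the loci with the smallest root mean square difference from each member were sought among 29014 other loci. For *MT1A* these were *PCC1* (0.075), AT2G01020 (0.12) and the plant defensin *PDF2.1* (0.15), with mean log2 ratios of 0.86, 0.80 and 0.71. For *MT1C* they were AT1G05205, AT1G10140 and the iron superoxide dismutase *FSD2* (0.034 to 0.051), and for *MT3* they were *TTN10*, *OPS* and AT1G18485 (0.032 to 0.040). Those nearest *MT2A* were *MSS3*, the histone gene *HTB1* and AT4G01593 (0.013 each), and those nearest *MT2B* were AT3G32930, *AOP2* and AT3G19850 (0.011 each). For *MT4A* and *MT4B* they were *RLP52*, AT1G76370 and AT5G51650, and AT2G07215, AT4G14970 and AT1G79915, but the pattern of *MT4A* comes from readings at background and that of *MT4B* averages 1 such probe with A_84_P20099.

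**Figure D4:**
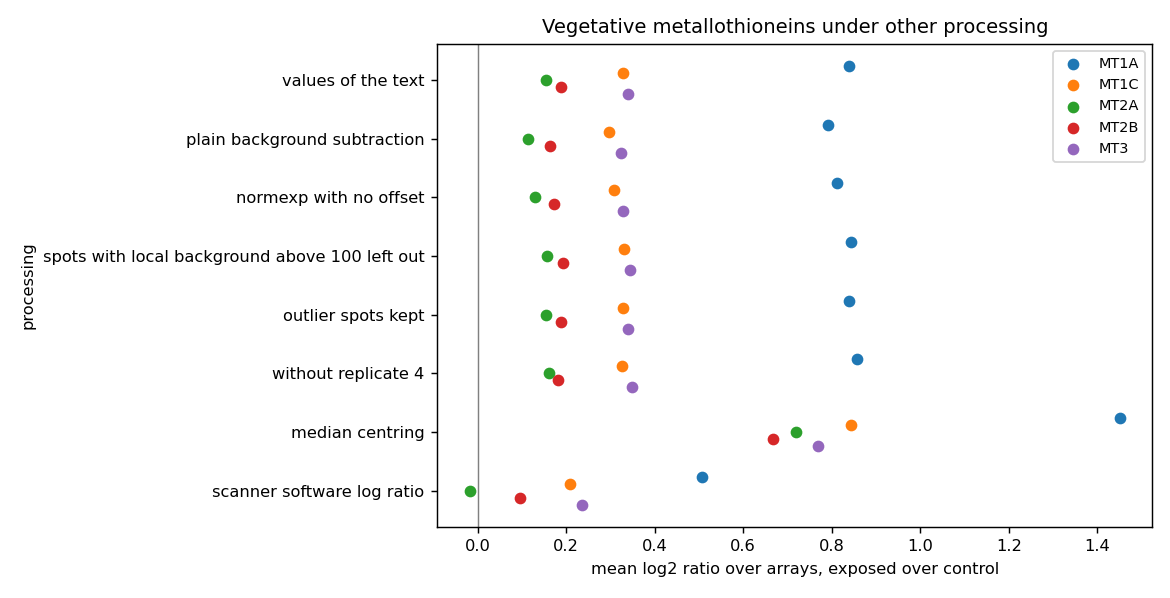
Mean log2 ratio of the 5 vegetative genes, exposed over control, in the values of the text and under 7 other ways of processing named on the axis, which leave out the deposited table of replicates 2 to 4. *MT1A* is highest in each way shown, between 0.51 and 1.45 (0.47 in the deposited table), median centring moves every gene up, and the scanner software's ratio puts *MT2A* at -0.018.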

How the data were processed

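RNA of whole seedlings was measured on 4 two-colour arrays, and condition and replicate were taken from the agent labels and titles. The authors deposited the output of Agilent Feature Extraction 11.5.1.1 for each array, where each spot has a median intensity and a median local background, neither of them normalized. These deposited files also give a log10 ratio, background-subtracted and dye-normalized by the software. In the deposited series table the columns of replicates 2 to 4 hold this log10 ratio, whereas that of replicate 1 holds its error, a score that was not used. The study's methods name background subtraction, lowess and limma. The study picked its differentially expressed genes in GeneSpring, by p-value and fold change, and not by the calls made here.

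R 4.3.3 and limma 3.58.1 were used for the log2 ratios. After normexp (offset 50), loess was run within each array. Control and outlier spots carried zero weight in it and were dropped afterwards. Spots of a probe and then probes of a locus were averaged. Levels of single channels were set between arrays with Aquantile. The mean ratio was set against 0 with lmFit and eBayes, over 43603 probes and over 29030 loci, with Benjamini-Hochberg adjustment over each. RefSeq (TAIR10.1) holds 28595 of these loci and was used for names only, since the array header names an older build, and coordinates were left out. Simulated ratios were used to test the code.

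The members and all lists were chosen with earlier results of these data known. Named were all members, in each list up to 2 loci called each way with the most extreme values, all seed genes, and the 3 loci most like each member. The named root and shoot markers, *CSD1* and the genes that did not pass in other lists were added after their values were seen. The number of arrays limits the precision. The limma p-values rest on the spread between these 4 replicates, moderated by eBayes towards a value pooled over all probes or loci. An ordinary test, which uses the spread of each probe alone, made 6 calls over all probes, against 7939.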

Additional observations from a re-analysis of the deposited data

How the results depend on the processing

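*MT1A*, *MT1C*, *MT2B* and *MT3* had a positive value under each alternative that gave one. *MT2A* changed sign under the log ratio of the scanner software (-0.018) and the deposited table of replicates 2 to 4 (-0.036). That table holds the same software ratio without replicate 1, so these are not separate checks. With the scanner software's ratio *MT1A*, *MT1C*, *MT2B* and *MT3* had log2 ratios of 0.51, 0.21, 0.097 and 0.24, and the vegetative median was 0.21, against 0.33 in the report. With the deposited table *MT1A*, *MT2B* and *MT3* had 0.47, 0.11 and 0.21, with a median of 0.21. Median centring gave 1.45, 0.84, 0.72, 0.67 and 0.77 for *MT1A*, *MT1C*, *MT2A*, *MT2B* and *MT3*, with a median of 0.77. Plain subtraction gave 0.11 for *MT2A* and 0.16 for *MT2B*, normexp without offset 0.13 for *MT2A*, and 0.20 resulted for *MT2A* once spots on non-uniform background were dropped, which left no spot of *MT1A*. The brightest probe gave 0.19 for *MT2A*, 0.24 for *MT2B* and 0.59 for *MT3*. Probes never scaled up from the low gain, an alternative chosen after seeing the data, gave 0.036 for *MT2B* and 0.21 for *MT3*, and no value for *MT1A*, *MT1C* and *MT2A*.

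The computed ratio of *MT4A*, whose probe was above background in neither group, was -0.16 with the offset, -0.56 with plain subtraction, -0.48 with no offset, -0.35 with median centring, -1.41 with the scanner software's ratio and -1.02 in the deposited table. For *MT4B*, the mean of both probes was -0.095, and -0.49, -0.31, -0.29, -0.57 and -0.65 in the same order. The cause of these shifts was not tested.

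Leaving out 1 replicate gave 0.78 to 0.88 for *MT1A*, 0.29 to 0.37 for *MT1C*, 0.14 to 0.16 for *MT2A*, 0.18 to 0.20 for *MT2B*, 0.32 to 0.36 for *MT3*, -0.20 to -0.12 for *MT4A*, -0.12 to -0.067 for *MT4B* and 0.29 to 0.33 for the vegetative median.

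Calls in the 5 lists numbered 25, and 13 with plain subtraction, 0 with no offset, 1 with an ordinary test and 16 to 25 with 1 replicate left out. Over all probes there were 7939 calls, and 3352 with plain subtraction, 20 with no offset, 17203 with median centring, 13227 with the ratios the scanner software computed, 6 under an ordinary test and 4401 to 6644 with 1 replicate left out, the fewest without replicate 1. Without the pairing of samples by array, that is with no replicate block, 16 loci of the lists and 3815 probes were called. Slide as a block, outlier spots kept, spots with a local background above 100 left out (chosen after seeing the data) and dim probes left out moved none of these values beyond the spread between arrays, or the counts beyond 1.5 times.

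By list, the zinc count of 6 became 2 with plain subtraction and 10 with median centring. The copper count of 4 became 0 with plain subtraction (4 at an unadjusted p below 0.05), 7 with median centring, 1 with no block, and 1, 2 and 0 without replicates 1, 3 and 4. The glutathione count of 2 became 1 with plain subtraction, with the deposited table, with no block and without replicate 1. The senescence count of 5 became 3 with plain subtraction, with no block and without replicate 1 or 3, and the seed count of 8 became 13 with median centring and with the scanner software's ratio.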
